A study of Mus musculus with 9 samples.

Results

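The natriuretic peptide system of the heart was followed through the transcripts of its 2 cardiac peptides, Nppa and Nppb, the 3 receptors Npr1, Npr2 and Npr3, and the activating protease gene Corin. These 6 genes were taken by symbol from RNA sequencing of mouse hearts, and all 6 were found among the 15149 genes in both deposited count tables. Each gene was represented by its transcript with the highest count. All 6 passed the filter on low counts and were among the 14426 genes tested.

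All 9 hearts came from wild-type (WT) mice of strain C57Bl6N, with 3 hearts in each group. Ctr hearts (2 females and 1 male) were controls at 0 d. The ISO group (1 female and 2 males) was perfused by osmotic minipump with isoprenaline, a beta-adrenoceptor agonist, at 30 mg/kg per day for 96 h (4 d). ISO/PE hearts (1 female and 2 males) received the same dose of isoprenaline plus phenylephrine, an alpha1-adrenoceptor agonist, at 30 mg/kg per day over the same period. The age was 2-3 months by the labels and 3–4 months by the paper's methods, and the paper describes the tissue as ventricular where the labels say heart. Drug, pump surgery and elapsed time cannot be told apart in a comparison with Ctr, while ISO/PE and ISO hearts differed by design in phenylephrine. The 3 Ctr hearts served in both comparisons with Ctr.

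Atrial natriuretic peptide (ANP, from Nppa) and B-type natriuretic peptide (BNP, from Nppb) are hormones of cardiomyocytes that are released on stretch and promote salt excretion and vasodilation. Nppa is active in atria throughout life and in ventricles mainly before birth and under stress, so both transcripts are common markers of ventricular stress. The peptides signal through Npr1, a membrane guanylyl cyclase that makes cGMP, whereas Npr3 lacks the cyclase domain and clears the peptides, and Npr2 is the cyclase receptor of the related C-type peptide.

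Total counts per heart ranged from 10172248 to 14477054, and the members had between 446 counts (Npr3 in ISO/PE male2) and 27303 counts (Nppa in ISO/PE female2). Counting error alone was 4.74% at the lowest of these and 0.605% at the highest. Markers of ventricular cardiomyocytes (5 genes) summed to 30702 to 33366 CPM (counts scaled to a common library size) in Ctr, 19110.0 to 23995 CPM in ISO and 9259 to 15701 CPM in ISO/PE hearts. Markers of atrial cardiomyocytes (10 genes) summed to 299.8 to 730.1 CPM, 349.6 to 450.8 CPM and 287 to 341 CPM in the same order. The atrial transcripts Myl7, Sln, Myl4 and Mybphl differed widely among Ctr hearts. Myl7, an atrial myosin light chain, was at 31.8, 4.50 and 95.5 CPM in Ctr female1, female2 and male1, at 20.1, 26.3 and 42.5 CPM in ISO female2, male1 and male2, and at 21.2, 16.2 and 18.5 CPM in ISO/PE female2, male1 and male2. Myl7 was thus highest in Ctr male1, lowest in Ctr female2 and intermediate in all treated hearts. Sln, Myl4 and Mybphl shared this pattern, with Myl4 at 12.1 CPM in Ctr female2 and 195 CPM in Ctr male1. The other markers measured did not, and Kcnj3 and Stard10 were at 109 and 55.9 CPM in Ctr female2 and lower in every ISO/PE heart. Summed macrophage markers (8 genes) went the other way from the ventricular ones, with 446 to 552 CPM in Ctr, 861 to 1480.2 CPM in ISO and 1631 to 2075 CPM in ISO/PE hearts. Myh6, Myl2 and Myl3 made up most of the ventricular sum. Of 12 cardiomyocyte markers, 7 were called lower for ISO/PE vs. Ctr (thresholds given below) and 0 higher. The rest were not called, with log2 fold changes of 0.08 for Actn2, -0.01 for Actc1, -0.13 for Ryr2, -0.45 for Ttn and -0.50 for Tnnc1. The part of the shifts in these marker sums in the values of the members was not tested.

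Nppa and Nppb were higher under ISO/PE than in either other group, Nppa was also called higher under ISO, and Npr3 was lower under ISO/PE than in Ctr. Levels per transcript length put the genes in the same order in each group. In Ctr hearts the means were 428 CPM per kilobase for Nppa, 313 for Nppb, 66.2 for Corin, 25.4 for Npr2, 18.01 for Npr1 and 11.6 for Npr3. Nppa and Nppb overlapped there (365 to 467 and 234 to 454 CPM per kilobase), as did Npr1 and Npr3 (15.6 to 19.3 and 8.75 to 17.1). In ISO hearts the means were 824, 240.0, 50.9, 23.3, 15.6 and 9.59 CPM per kilobase in the same order of genes. In ISO/PE hearts they were 1678, 834, 46.0, 19.0, 12.9 and 5.53 CPM per kilobase, and in both treated groups the values of neighbouring genes in this order did not overlap.

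A gene was called when its adjusted p was under 0.05 and its absolute log2 fold change above 0.6. For ISO vs. Ctr, 1 of the 6 members (Nppa) was called higher, where 10.4% of all genes tested were called higher and 2.99% lower. For ISO/PE vs. Ctr, 2 were called higher (Nppa and Nppb) and 1 lower (Npr3), against 16.0% and 10.1% of all genes. For ISO/PE vs. ISO, 2 were called higher (Nppa and Nppb), against 3.64% higher and 2.81% lower among all genes. With the adjusted p alone and no fold threshold, 1, 6 and 3 of the 6 members passed in these comparisons, where 24.8%, 47.1% and 14.4% of all genes did. The groups did not overlap for 6 of 6 members between ISO/PE and Ctr, where 56.3% of all genes did not, and for 5 of 6 between ISO/PE and ISO, where 33.4% did not. Between ISO and Ctr the groups overlapped for each of the 6 members, while 43.5% of all genes had groups apart.

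**Figure D1:**
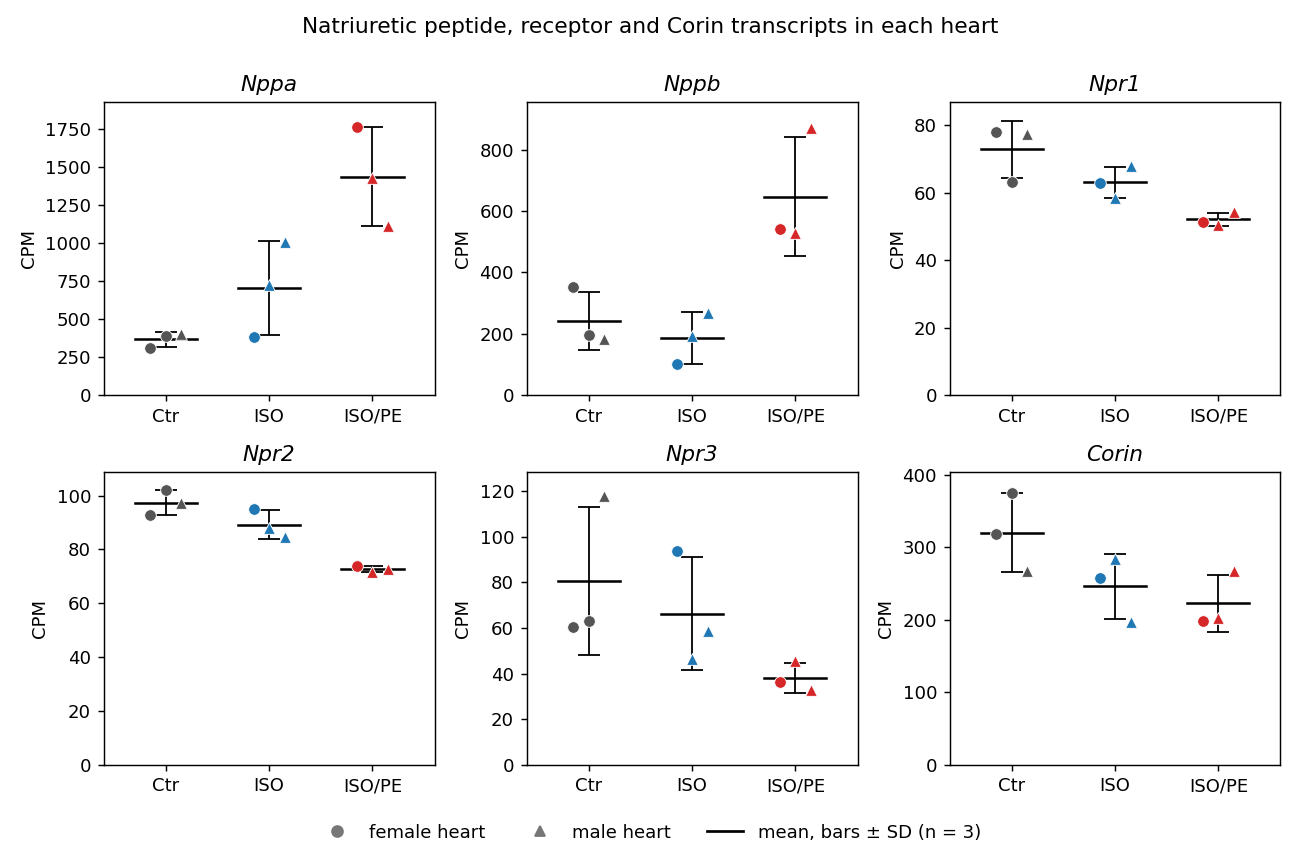
CPM of the 6 transcripts in each heart (circles female, triangles male), with the group mean and SD of 3 hearts on axes that start at 0. All 3 ISO/PE hearts lie above all Ctr and ISO hearts for Nppa (1112 to 1762 CPM) and Nppb (528 to 872 CPM), and below them for Npr3 (32.8 to 45.5 CPM).

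Nppa lies on chromosome 4 of GRCm38 (mm10) from 148000722 to 148002079 on the plus strand, with 3 exons. Nppb lies on the same strand from 147985788 to 147987205, also with 3 exons, and 13516 bases separate it from Nppa. The sequences around their starts are shown because both peptide transcripts were higher under ISO/PE and both windows hold a GATA motif and a TATA box. The part of these motifs in that rise was not tested. Each window holds 250 bases before and 50 bases from the start site in RefSeq (GRCm38.p6, plus strand, chr4:148000472-148000771 for Nppa and chr4:147985650-147985949 for Nppb), and RefSeq puts the Nppb start 112 bases inside the gene as GENCODE draws it. Capitals mark the motifs described beneath them.
Nppa: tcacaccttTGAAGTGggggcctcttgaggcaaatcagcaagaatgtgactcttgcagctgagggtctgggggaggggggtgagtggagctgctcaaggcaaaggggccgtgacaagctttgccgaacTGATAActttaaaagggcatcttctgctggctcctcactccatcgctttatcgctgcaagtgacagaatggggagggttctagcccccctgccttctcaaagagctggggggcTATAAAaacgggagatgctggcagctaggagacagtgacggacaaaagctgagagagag
Nppb: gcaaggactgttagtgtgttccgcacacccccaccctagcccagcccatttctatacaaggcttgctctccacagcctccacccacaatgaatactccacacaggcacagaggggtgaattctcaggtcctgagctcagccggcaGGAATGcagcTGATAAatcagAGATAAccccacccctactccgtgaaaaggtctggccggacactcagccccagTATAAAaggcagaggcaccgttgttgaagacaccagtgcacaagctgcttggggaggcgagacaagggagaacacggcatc
On the printed strand, Nppa held the letters TGATAA 122 bases upstream of its start, and Nppb held TGATAA at 95 and AGATAA at 84 bases upstream. These are the sequences bound by GATA factors such as Gata4, and 18.6% of all 32851 RefSeq windows of this length held either of them on one strand or the other. Nppa also had a match to the NKX2-5 motif TNAAGTG 241 bases upstream (11.5% of all windows). Nppb had the M-CAT motif of TEAD factors, CATTCC, on the opposite strand 105 bases upstream, where the printed strand reads GGAATG (14.7% of all windows). A TATA box (TATAAA, 13.6% of windows) stood 9 bases upstream of the annotated start in Nppa and 31 bases upstream in Nppb. None of the marked motifs overlapped another. The AP-1 motif TGANTCA (7.81% of windows) and the cAMP response element TGACGTCA (1.79%) had no match in the windows of the 6 members. Nor had the CArG box of serum response factor (CCWWWWWWGG with W for A or T, 1.63%). Only exact letters were searched, so near matches, such as ctttaaaagg right after TGATAA in Nppa, were not counted. The windows of Npr1, Npr2, Npr3 and Corin held none of the 7 motifs searched. A match is a run of letters and does not show that a factor binds there.

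Nppa was at 312, 386 and 399.7 CPM in Ctr female1, female2 and male1. In ISO hearts it was at 382 in female2, 727 in male1 and 1004 CPM in male2. In ISO/PE hearts it was at 1762 in female2, 1429.8 in male1 and 1112 CPM in male2. The Ctr hearts lay close together, ISO female2 fell within their range while both ISO males stood above it, and the 3 ISO/PE hearts exceeded every heart of the other groups. The mean was 366 ± 46.9 CPM for Ctr, 704 ± 312 CPM for ISO and 1435 ± 325 CPM for ISO/PE (SD, n = 3).

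Nppa rose 3.92-fold under ISO/PE vs. Ctr (log2 fold change 1.97, standard error 0.29, 95% confidence interval 1.34 to 2.61, adjusted p = 2.30e-04). Its increase over ISO was 2.04-fold (1.03, standard error 0.28, interval 0.41 to 1.65, adjusted p = 0.0337), and its increase under ISO vs. Ctr was 1.92-fold (0.94, standard error 0.28, interval 0.32 to 1.56, adjusted p = 0.0307). The call vs. ISO was lost, at values of 0.73, 1.06, 0.85 and 1.03 (adjusted p of 0.0626, 0.0887, 0.121 and 0.0629), when ISO female2, ISO male1, ISO/PE female2 or ISO/PE male1 was left out. The call for ISO vs. Ctr was lost with sex as a covariate (0.83, adjusted p = 0.0783) and when any one of the Ctr hearts female1, female2 and male1 (0.84, 0.97 and 1.01, with adjusted p of 0.107, 0.0791 and 0.0590), ISO male1 (0.90, adjusted p = 0.0830) or ISO male2 (0.60, adjusted p = 0.139) was left out. In bulk tissue, more RNA per cell and more cells of a type cannot be told apart.

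The atrial transcripts Myl7 and Sln put the hearts in another order than Nppa did. Nppa was at 386 CPM in Ctr female2, where Myl7 was at 4.50 and Sln, an atrial regulator of the calcium pump, at 0.751 CPM, and at nearly the same level in Ctr male1, where these were at 95.5 and 65.1 CPM. Between ISO/PE and Ctr, Myl7 differed by -1.23 on the log2 scale (adjusted p = 0.157) and Sln by -1.88 (adjusted p = 0.0973). Of the 10 atrial markers measured, 2 were called lower for ISO/PE vs. Ctr, the potassium channel gene Kcnj3 and the lipid transfer gene Stard10. Dkk3 lay above 0 there (0.65, adjusted p = 0.0595), Kcna5 was at -0.03 (adjusted p = 0.905), and the median of the 10 was -0.89. The part of atrial tissue in the Nppa values was not tested. Counting ignored strand, and 61.5% of the exon bases of the Nppa transcript lie under the antisense gene Gm13054, so reads from that gene and from Nppa cannot be told apart. The exons of Nppb overlap no other gene.

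**Figure D2:**
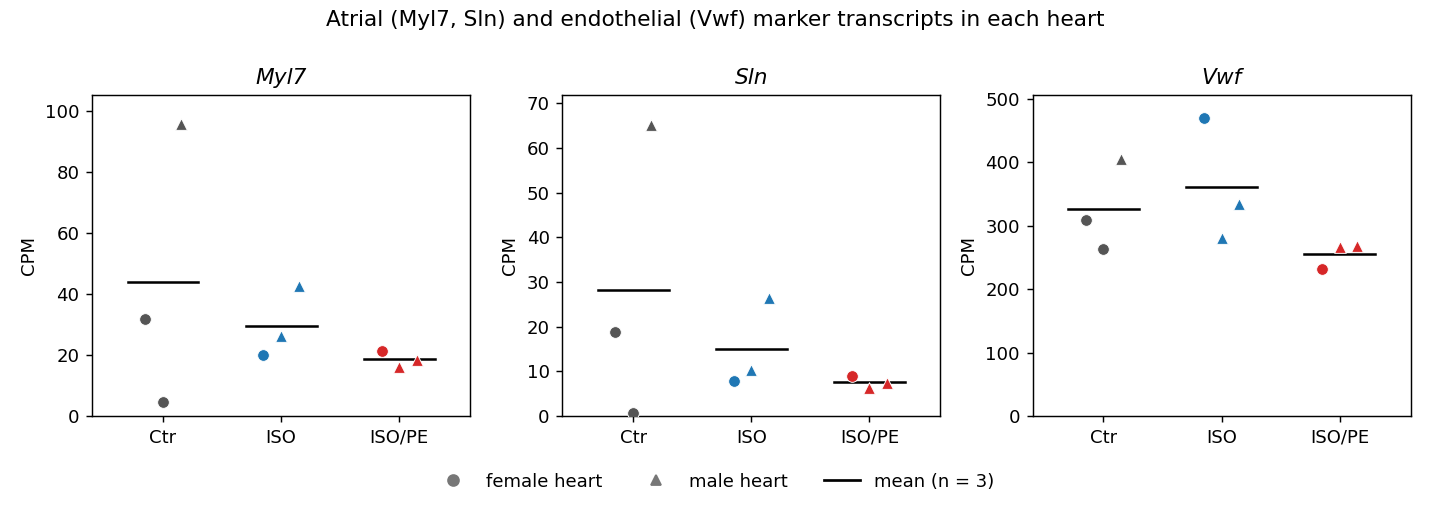
CPM of the atrial transcripts Myl7 and Sln and of Vwf, an endothelial and endocardial transcript, in each heart, with group means (lines, n = 3) on axes that start at 0. Ctr male1 has the highest Myl7 (95.5 CPM) and Sln (65.1 CPM), and Vwf is highest in ISO female2 (469.9 CPM) and Ctr male1 (406 CPM).

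Nppb was at 352, 195.5 and 182 CPM in Ctr female1, female2 and male1. ISO female2, male1 and male2 had 99.8, 192 and 267 CPM. ISO/PE female2, male1 and male2 had 541, 528 and 872 CPM. Ctr and ISO hearts overlapped, the lowest heart of all was ISO female2, and every ISO/PE heart was above every other heart.

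Nppb rose 2.66-fold under ISO/PE vs. Ctr (log2 fold change 1.41, standard error 0.35, interval 0.66 to 2.17, adjusted p = 0.00599) and 3.48-fold vs. ISO (1.80, standard error 0.35, interval 1.03 to 2.56, adjusted p = 0.00870). Without any single heart, the change from ISO stayed between 1.495 and 2.15 and was called each time. Between ISO and Ctr the value was -0.39 (standard error 0.34, interval -1.13 to 0.36, adjusted p = 0.446), which leaves a decrease as well as a small increase within reach. It was -0.02 without Ctr female1, -0.08 without ISO female2, -0.74 without ISO male2 and -0.008 when scaled to cardiomyocyte markers.

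The balance of the 2 peptide transcripts was read within each heart. Per kilobase, Nppb reads were 1.24, 0.558 and 0.501 times those of Nppa in Ctr female1, female2 and male1. The same ratio was 0.288, 0.291 and 0.293 in ISO female2, male1 and male2, although the ISO hearts differed widely in both transcripts. In ISO/PE female2, male1 and male2 it was 0.338, 0.407 and 0.864. The ISO hearts thus had the lowest ratios of all and a spread of 0.01 on the log2 scale, and ISO/PE hearts overlapped Ctr hearts. The log2 ratio was lower in ISO than in Ctr by 1.27 and lower than in ISO/PE by 0.76. An exact 2-sided permutation test gave p = 0.1 for each of these (0.15 adjusted over 3 pairs of groups), the smallest that 3 against 3 hearts allow, and p = 0.5 between ISO/PE and Ctr. Without ISO/PE male2, the difference between ISO/PE and ISO was 0.35.

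**Figure D3:**
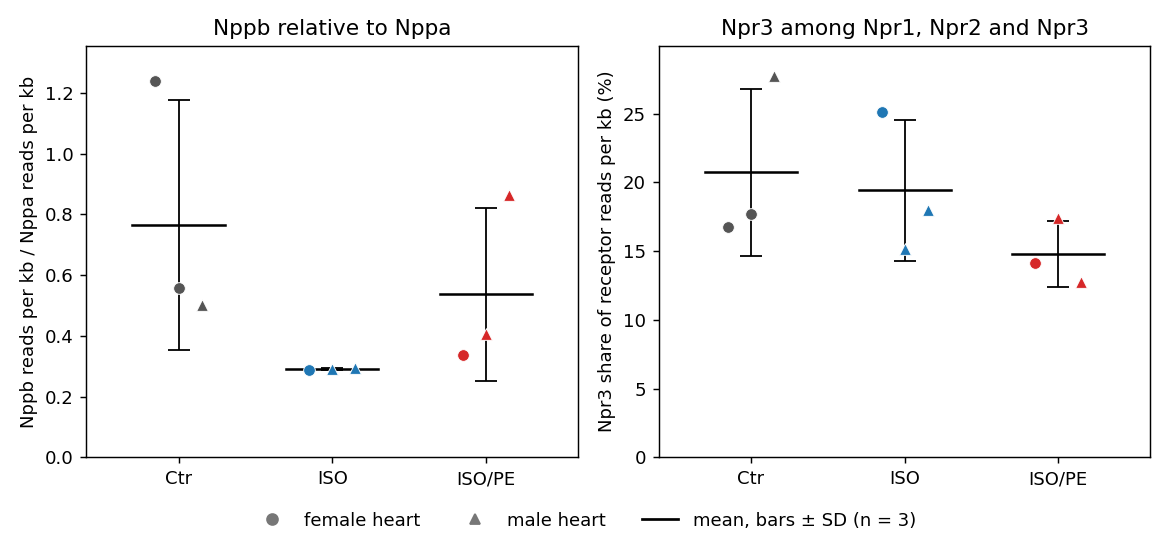
Ratio of Nppb to Nppa reads per kilobase (left) and share of Npr3 among the reads per kilobase of the 3 receptors in percent (right) in each heart, with mean and SD of 3 hearts on axes that start at 0. The 3 ISO hearts have ratios of 0.288 to 0.293, below all other hearts, and the Npr3 share is highest in Ctr male1 (27.7%) and ISO female2 (25.1%).

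Npr1, the cyclase receptor of ANP and BNP, lies on chromosome 3 from 90450591 to 90465866 on the minus strand and has 22 exons. It was at 77.9, 63.2 and 77.3 CPM in Ctr female1, female2 and male1. The ISO hearts female2, male1 and male2 had 62.9, 58.5 and 67.8 CPM, and the ISO/PE hearts of the same names 51.3, 50.5 and 54.3 CPM. The ISO/PE hearts lay below all others, and ISO and Ctr hearts overlapped. For ISO/PE vs. Ctr the log2 value was -0.48 (standard error 0.10, interval -0.69 to -0.27, adjusted p = 0.00164), short of the fold threshold. It was -0.28 for ISO/PE vs. ISO (adjusted p = 0.0739) and -0.21 for ISO vs. Ctr (adjusted p = 0.139). An antisense gene covers 9.89% of its exon bases.

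Npr2, the cyclase receptor of the C-type peptide, lies on chromosome 4 from 43631935 to 43651244 on the plus strand and also has 22 exons. Its levels were 92.9, 102 and 97.2 CPM in Ctr female1, female2 and male1. The ISO hearts female2, male1 and male2 had 95.1, 88.0 and 84.5 CPM, and those of ISO/PE 73.7, 71.7 and 72.9 CPM. The 3 ISO/PE hearts agreed to within an SD of 1.03 CPM and lay apart from all other hearts. The log2 value for ISO/PE vs. Ctr was -0.42 (standard error 0.075, interval -0.58 to -0.26, adjusted p = 8.08e-04), short of the fold threshold. ISO/PE vs. ISO gave -0.29 (adjusted p = 0.0249), also short of it, and ISO vs. Ctr -0.13 (adjusted p = 0.242). An antisense gene covers 1.61% of the exon bases.

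The sign of these small receptor differences changed under 1 of the scalings only, that to cardiomyocyte markers. Of those 12 markers, 7 were themselves called lower for ISO/PE vs. Ctr. When libraries were scaled to the summed counts of 12 cardiomyocyte markers, the median of all genes moved to 0.35 (ISO vs. Ctr), 0.88 (ISO/PE vs. Ctr) and 0.53 (ISO/PE vs. ISO). On that scale Npr1 was at 0.40 and Npr2 at 0.47 for ISO/PE vs. Ctr, above 0 but still below that median. The calls over all genes then became 3214 higher and 124 lower, 10274 and 151, and 5320 and 81 in the order of these comparisons, where the normalization used here gave 1502 and 431, 2309 and 1463, and 525 and 405. Library totals without normalization factors shifted the median by at most 0.113 (ISO/PE vs. Ctr), with 2730 genes called higher and 1049 lower there and 646 and 320 for ISO/PE vs. ISO. With library totals, Npr1 and Npr2 stayed below 0, at -0.37 and -0.31 for ISO/PE vs. Ctr.

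Npr3, the clearance receptor, lies on chromosome 15 from 11839896 to 11907287 on the minus strand, with 8 exons that overlap no other gene. It was at 60.5, 63.0 and 118 CPM in Ctr female1, female2 and male1. The ISO hearts female2, male1 and male2 had 93.8, 46.3 and 58.9 CPM, and the ISO/PE hearts of these names 36.4, 45.5 and 32.8 CPM. Ctr male1 and ISO female2 stood well above the other hearts of their groups, and the ISO/PE hearts were lower than all others, with ISO/PE male1 (45.5) only just under ISO male1 (46.3).

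Npr3 fell by 1.07 on the log2 scale under ISO/PE vs. Ctr, to 0.475 times its level in Ctr (standard error 0.29, interval -1.70 to -0.44, adjusted p = 0.00963). Without Ctr male1 the value was -0.69 (adjusted p = 0.0432) and still called, and scaled to cardiomyocyte markers it was -0.22 (adjusted p = 0.394) and not called. ISO/PE vs. ISO gave -0.80 (standard error 0.29, interval -1.42 to -0.17, adjusted p = 0.0834, but 0.0404 and called without Ctr male1). ISO vs. Ctr gave -0.28 (standard error 0.28, interval -0.89 to 0.34, adjusted p = 0.512), with a change of sign to 0.11 without Ctr male1 and to 0.058 when scaled to cardiomyocyte markers.

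The 2 hearts with high Npr3 also had the highest Vwf, the clotting factor gene of endothelial cells and endocardium, a site of Npr3 expression. The 6 endocardial markers summed to 789 CPM in Ctr male1 and 864 CPM in ISO female2, and to between 549.9 and 754 CPM in each of the other 7 hearts. Vwf was the largest single part of these sums, with 406 and 469.9 CPM in these hearts and 232 to 334 CPM in the rest. Without Vwf, the other 5 markers summed to 383 CPM in Ctr male1 and 394 CPM in ISO female2, and were highest in ISO male2 (421 CPM), where Npr3 was at 58.9 CPM. Of the 6 endocardial markers, 1 was called lower for ISO/PE vs. Ctr, the cytokine-like gene Cytl1 (-1.05, adjusted p = 0.00230), and of 12 general endothelial markers the median was -0.32. The part of the endocardial transcripts in the Npr3 values was not tested.

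Among the 3 receptors, Npr3 made up 16.7, 17.7 and 27.7% of reads per kilobase in Ctr female1, female2 and male1. The share was 25.1, 15.2 and 17.98% in the ISO hearts female2, male1 and male2, and 14.1, 17.4 and 12.7% in the ISO/PE hearts of these names. All 3 groups overlapped. The mean difference in share was -5.96 percentage points for ISO/PE vs. Ctr, -4.67 for ISO/PE vs. ISO and -1.29 for ISO vs. Ctr. Exact 2-sided permutation tests gave p = 0.2, 0.2 and 0.7 (0.3, 0.3 and 0.7 adjusted over 3 pairs of groups). The difference was -2.46 percentage points without Ctr male1 for ISO/PE vs. Ctr, and -1.81 without ISO female2 for ISO/PE vs. ISO.

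Corin encodes the serine protease on cardiomyocytes that cleaves the ANP precursor into the active hormone. It lies on chromosome 5 from 72300025 to 72504473 on the minus strand and has 22 exons, with 3.02% of their bases under an antisense gene. It was at 318, 375.5 and 268 CPM in Ctr female1, female2 and male1. The ISO hearts female2, male1 and male2 had 258, 284 and 197 CPM, and the ISO/PE hearts so named 198, 202 and 268 CPM. ISO/PE male2 (267.6 CPM) and Ctr male1 (267.7 CPM) almost met, while the remaining ISO/PE and Ctr hearts were clearly apart, and ISO hearts overlapped both groups.

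The log2 value of Corin was -0.53 for ISO/PE vs. Ctr (standard error 0.17, interval -0.89 to -0.16, adjusted p = 0.0222), short of the fold threshold, and its adjusted p ran from 0.00704 to 0.0877 with each heart left out. It passed both thresholds without Ctr male1 (-0.64, adjusted p = 0.0139) or without ISO/PE male2 (-0.68, adjusted p = 0.00704), and was above 0 (0.36, below the median of 0.88 for all genes) when scaled to cardiomyocyte markers. ISO vs. Ctr gave -0.38 (standard error 0.17, adjusted p = 0.118) and ISO/PE vs. ISO -0.15 (standard error 0.17, interval -0.51 to 0.22, adjusted p = 0.589). The transcript of the precursor it cleaves, Nppa, rose 3.92-fold in the hearts in which Corin was at 0.695 times its level in Ctr.

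**Figure D4:**
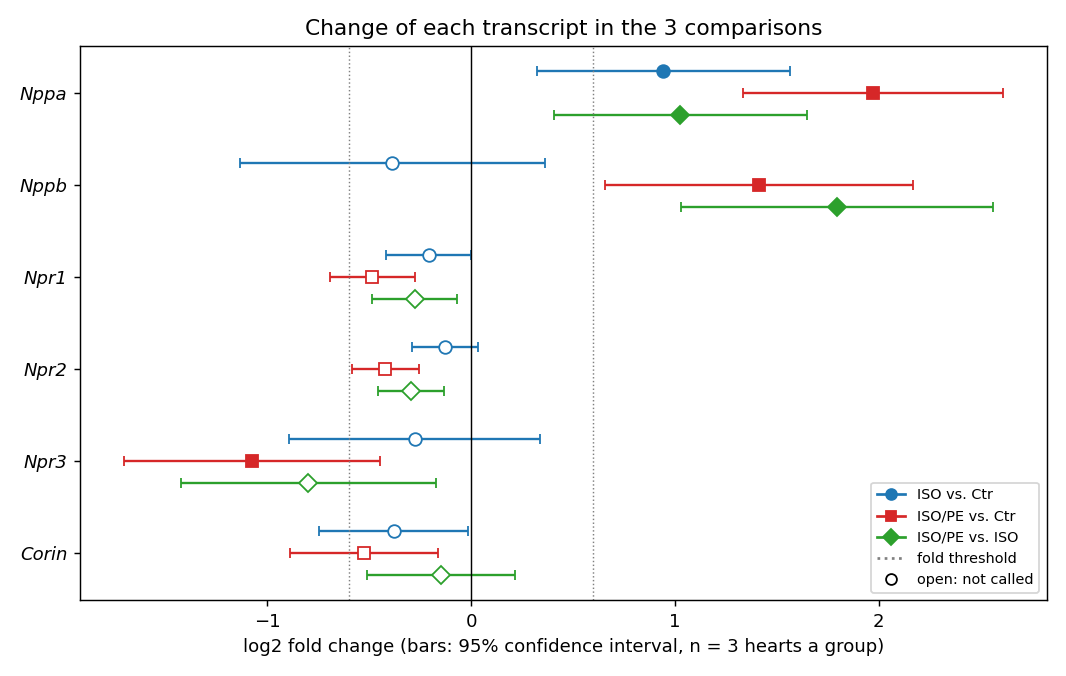
Log2 fold change of each transcript for ISO vs. Ctr (circles), ISO/PE vs. Ctr (squares) and ISO/PE vs. ISO (diamonds), with 95% confidence intervals from edgeR (3 hearts a group) and the fold threshold of 0.6 as dotted lines. Filled symbols passed both thresholds, which were Nppa in all 3 comparisons, Nppb in those of ISO/PE and Npr3 for ISO/PE vs. Ctr.

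The other genes of the pathway were read from 9 lists with 74 measured genes besides the members. Of these, 9 were called higher and 1 lower for ISO vs. Ctr, 15 higher and 10 lower for ISO/PE vs. Ctr, and 6 higher and 3 lower for ISO/PE vs. ISO. Their median log2 fold changes were 0.046, -0.005 and -0.138, beside medians of -0.005, -0.008 and -0.005 for all genes tested. Scaled to cardiomyocyte markers, 24, 48 and 24 were called, and a decrease smaller than the shift of the median given above for that scale lies above 0 there.

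Nppc, the gene of the C-type peptide, was close to absent in Ctr hearts, with 4 counts in the 3 hearts together, and had 104 counts in ISO and 71 in ISO/PE hearts. Per library size, this was 21.5 times the Ctr level in ISO (exact 95% counting interval 8.16 to 80.5) and 13.1 times in ISO/PE (4.88 to 49.3). All 3 ISO hearts (1.27 to 4.17 CPM) and all 3 ISO/PE hearts (0.735 to 2.39 CPM) were above the highest Ctr heart (0.281 CPM), and edgeR called both increases (adjusted p = 0.00246 and 0.00469). Even so, Nppc stayed far below Nppa and Nppb in every heart, and ISO/PE and ISO hearts overlapped (adjusted p = 0.334).

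Of 10 measured genes of peptide processing and breakdown besides Corin, 2 were called higher and 1 lower for ISO vs. Ctr, 2 higher and 2 lower for ISO/PE vs. Ctr, and 2 lower for ISO/PE vs. ISO. Furin, the convertase that cleaves the BNP precursor, was at 151 to 177 CPM for Ctr, 208 to 224 CPM for ISO and 210.4 to 265 CPM for ISO/PE hearts, without overlap between treated and Ctr hearts. Its differences from Ctr of 0.40 under ISO (adjusted p = 0.0159) and 0.51 under ISO/PE (adjusted p = 0.00197) were short of the fold threshold. Pcsk5, a related convertase, rose by 0.74 under ISO (adjusted p = 0.00384) and was lower by 0.62 in ISO/PE than in ISO hearts (adjusted p = 0.0165). Pcsk6, a convertase known to activate Corin, was at -0.53 in that comparison (adjusted p = 0.0169), and Pcsk7 at -0.09 (adjusted p = 0.469). Neither of these passed both thresholds in any comparison.

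Among the enzymes that break the peptides down, Mme, which encodes neprilysin, fell under ISO by 0.66 (adjusted p = 0.0472) and under ISO/PE by 0.79 vs. Ctr (adjusted p = 0.0118). Ide, the insulin-degrading enzyme, was at -0.36 under ISO (adjusted p = 0.00830) and -0.54 under ISO/PE (adjusted p = 2.57e-04), short of the fold threshold. Dpp4, a dipeptidyl peptidase that trims BNP, fell by 1.002 between ISO and ISO/PE (adjusted p = 0.00235), from 15.6 to 19.0 CPM in ISO to 8.33 to 9.22 CPM in ISO/PE hearts. Its relative Fap, a protease of activated fibroblasts, rose by 0.82 under ISO/PE vs. Ctr (adjusted p = 0.00752). The protease inhibitor Spint1 had no counts in Ctr hearts, 26 in ISO and 47 in ISO/PE hearts, at least 7.18-fold and 11.5-fold higher per library size when 3 counts over the group are taken as the floor. Its relative Spint2 was at -0.35 under ISO/PE (adjusted p = 0.00685). The median of the list was 0.24 under ISO and -0.17 under ISO/PE vs. Ctr, and is the same with Spint1, its highest value, at its lower bound.

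Downstream, cGMP is also made by the soluble guanylyl cyclase that nitric oxide activates. Its subunit genes Gucy1a1, Gucy1a2 and Gucy1b1 were at -0.44 (adjusted p = 0.0397), -0.29 (adjusted p = 0.0997) and -0.18 (adjusted p = 0.258) for ISO/PE vs. Ctr, and short of the fold threshold in all 3 comparisons. Of 9 genes that carry cGMP effects, Prkg2, the type II cGMP kinase, rose under ISO/PE by 1.36 vs. Ctr (adjusted p = 0.0199) and 1.43 vs. ISO (adjusted p = 0.0384) at levels of 1.21 to 2.00 CPM in ISO/PE hearts. Pln, the calcium pump inhibitor phospholamban, fell by 0.89 vs. Ctr (adjusted p = 2.36e-04). Of 10 genes of cGMP breakdown and export, Pde1a, a calcium-dependent phosphodiesterase, rose by 0.71 under ISO (adjusted p = 0.00217) and 1.11 under ISO/PE (adjusted p = 3.77e-05). Its relative Pde1b rose by 0.61 under ISO/PE (adjusted p = 0.0305), and Pde2a, which cGMP itself activates, fell by 0.71 (adjusted p = 4.59e-05). The genes of 2 enzymes known as breakers of cGMP in cardiomyocytes, Pde5a and Pde9a, were at 0.12 and 0.08 for ISO/PE vs. Ctr and were not called in any comparison.

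Of 24 genes of transcriptional regulators that act on Nppa or Nppb, 4 were called higher for ISO vs. Ctr, 4 higher and 5 lower for ISO/PE vs. Ctr, and 1 lower for ISO/PE vs. ISO. The regulators with the smallest p for ISO/PE vs. Ctr were the cardiac T-box factor Tbx20 (0.73, adjusted p = 1.04e-04), the class II deacetylase Hdac5 (-0.65, adjusted p = 2.41e-04), the AP-1 subunit Fos (1.65, adjusted p = 2.71e-04) and the immediate early factor Egr1 (0.75, adjusted p = 7.00e-04). Between ISO/PE and ISO their adjusted p lay between 0.0505 and 0.395, short of a call. The 1 regulator called there was the T-box factor Tbx5, at -0.64 (adjusted p = 0.00845). Tbx5 was also called lower for ISO/PE vs. Ctr (-0.65, adjusted p = 0.00136). Gata4, whose motif stands in both peptide promoters shown, was at -0.31 under ISO and under ISO/PE vs. Ctr (adjusted p = 0.0342 and 0.0190) and at -0.001 between ISO/PE and ISO (adjusted p = 0.995).

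Of 10 other fetal and stress genes of cardiomyocytes, 1 was called higher for ISO vs. Ctr and 5 in each comparison of ISO/PE (with Ctr and with ISO), with medians of -0.18, 0.91 and 0.92. The crosslinker Actn1, called in all 3 comparisons as Nppa was, rose by 0.94, 1.83 and 0.89 in that order (adjusted p = 6.10e-04, 4.39e-06 and 0.00340). Its relative Actn2, of the cardiomyocyte marker list, was at 0.09, 0.08 and -0.01, and the cell type in which Actn1 rose was not tested. Ankrd1, a nuclear stress protein of the sarcomere, rose by 1.73 vs. Ctr and 1.47 vs. ISO, the calcineurin regulator Rcan1 by 1.02 and 0.94, and the actin-binding Xirp2 by 0.79 and 0.94, each without a call for ISO vs. Ctr, as for Nppb. The 5 genes were not the same in both comparisons. Acta1 was called vs. Ctr only (1.53, adjusted p = 0.0158) and Myh7 vs. ISO only (3.04, adjusted p = 0.0165). Myh7 was uneven, at 1908, 129 and 697 CPM in ISO/PE female2, male1 and male2. It was at 93.3 to 135 CPM in ISO and 322 to 606 CPM in Ctr hearts.

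Of the 7 measured neighbours of Nppa and Nppb on chromosome 4, only the mitochondrial fusion gene Mfn2 was called, lower for ISO/PE vs. Ctr by 0.67 (adjusted p = 7.03e-04). Plod1, a collagen hydroxylase gene, was at 0.42 (adjusted p = 0.00215), short of the fold threshold. Clcn6, a chloride transporter gene, was at -0.31 (adjusted p = 0.0333), and the median of the 7 was 0.04.

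**Figure D5:**
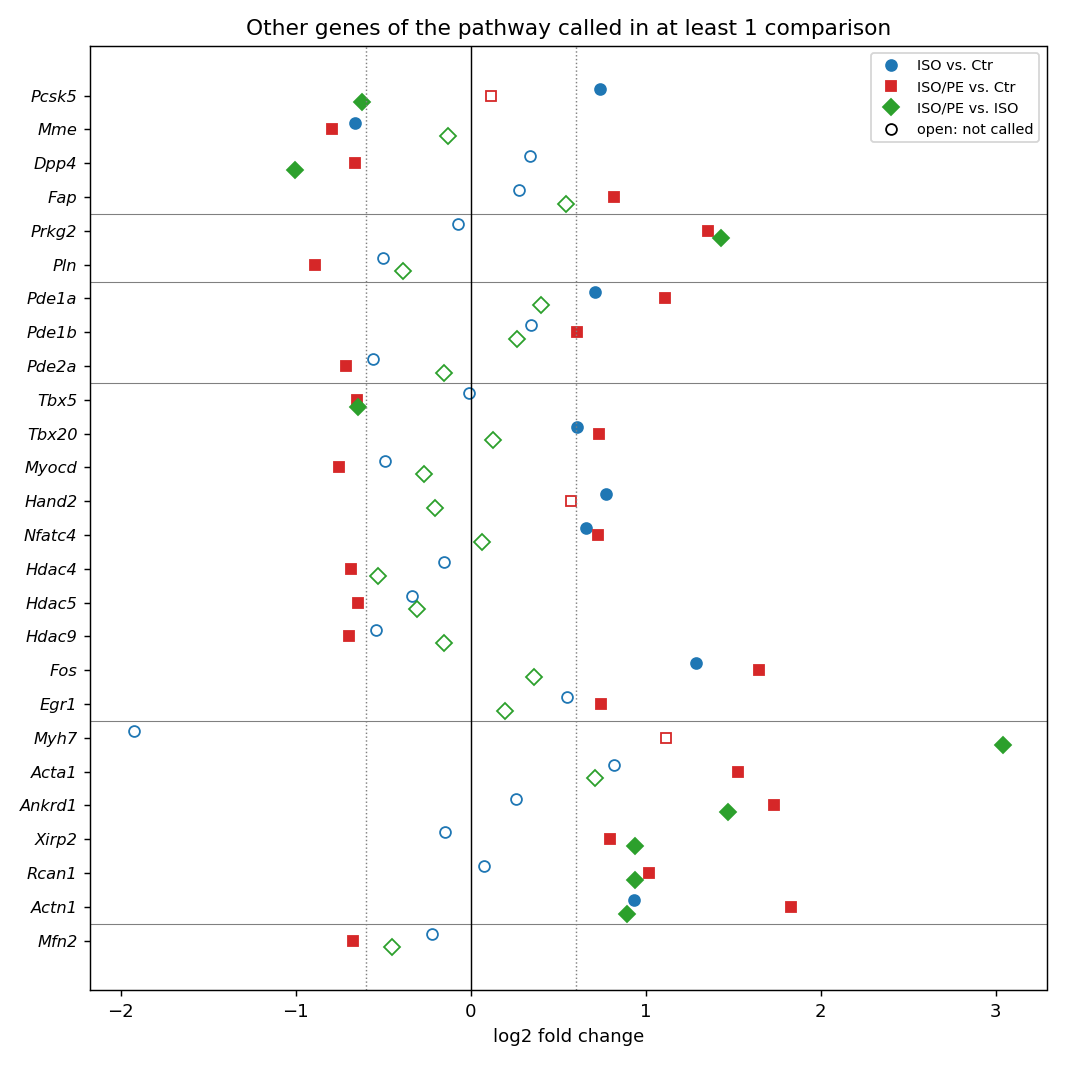
Log2 fold change of the 26 other pathway genes called in at least 1 comparison (filled symbols called, open symbols not), for ISO vs. Ctr (circles), ISO/PE vs. Ctr (squares) and ISO/PE vs. ISO (diamonds), with grey lines between lists of processing and breakdown, cGMP effectors, cGMP breakdown, transcriptional regulators, stress genes and locus neighbours. Nppc and Spint1, near 0 counts in Ctr, are left out. The stress genes drawn lie right of 0 for ISO/PE vs. ISO, between 0.71 (Acta1) and 3.04 (Myh7). As 5 of the 10 listed were called higher in that comparison, this follows in part from drawing called genes only. Of the stress list, only Myl4 lies left of 0 there (-0.50), and it is not drawn.

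Across the 9 hearts, the genes most like each member were found by Pearson's r of log2(CPM + 0.5), as a description only, since the hearts share their groups and library scaling. For Nppa they were Wfdc18 (0.992), Tceal8 (0.990) and the actin-binding Pfn1 (0.988), and for Nppb Zfp593 (0.960), the muscle gene Smpx (0.955) and Tmem120a (0.952). Npr1 was most like Enpp2 (0.981), Syn3 (0.978) and Bcl11b (0.977), and Npr2 like Pitpnm2 (0.993), R3hdm2 (0.986) and Osbp2 (0.985). Npr3 was most like the small GTPase gene Rhob (0.990), the adrenoceptor gene Adra2c (0.969) and Tbcel (0.964), and Corin like the desmosomal cadherin gene Dsc2 (0.981), Mapk8 (0.974) and Rundc1 (0.969). Group means for Ctr, ISO and ISO/PE were 329, 399 and 523 CPM for Pfn1 and 301, 290.0 and 261 CPM for Rhob. Wfdc18 was close to the limit of detection, with group means of 0.0993, 0.649 and 2.10 CPM.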

How the data were processed

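The authors aligned the reads to mm10 with STAR and deposited raw counts per RefSeq transcript, without regard to strand and without pooling. Exon counting is credited to analyzeRepeats.pl in the paper and to featureCounts in the submitters' processing notes. Their versions are not stated. The first table holds ISO/PE and ISO hearts, the second ISO and Ctr hearts. The ISO counts were equal in both. Columns of normalized values (TMM, RPKM) and of the authors' own DESeq2 tests (fold changes and p-values) were not used. For each gene the transcript with the highest total was kept, because reads were counted for every transcript they touch.

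Counts were joined on 29889 shared transcripts. edgeR 4.0.16 (R 4.3.3) fitted all 9 hearts at once (filterByExpr with minimum count 10 and total 15, TMM factors, glmQLFit and glmQLFTest, Benjamini-Hochberg over 14426 genes). Standard errors came from the fold change and its F value, CPM from normalized library sizes. The fit was tested on simulated data. The labels number the hearts by sex and say no more of their origin, so p-values measure the spread between these samples.

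Named genes were all members, every measured gene of the peptide, receptor, processing and soluble cyclase lists, up to 4 called genes of each other list by p for ISO/PE vs. Ctr, and the 3 most correlated genes. Clcn6, Plod1, Gata4, Pde5a, Pde9a, Kcnj3, Stard10, Cytl1 and the marker genes Myl7, Sln and Vwf were added after values were seen. So were the marker genes Myh6, Myl2, Myl3, Actn2, Actc1, Ryr2, Ttn, Tnnc1, Dkk3, Kcna5, Myl4 and Mybphl. Tbx5, Acta1 and Myh7 were also added then. Members and lists were chosen with earlier results of these data known. Ostn, Bmp10 and the symbols Gucy1a3, Gucy1b3 and Irag1 were not analysed here, and 1 gene of the locus list is not reported here. Alternatives were DESeq2 1.42.0, limma-voom 3.58.1, other scalings, no filter, only 2 groups in the fit, sex or replicate name as a covariate, the longest transcript and each heart left out.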

Additional observations from a re-analysis of the deposited data

Results flagged for a closer look

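In 2 results the hearts of the sexes moved in opposite directions from Ctr to ISO, which rests on 2 female and 1 male Ctr hearts and 1 female and 2 male ISO hearts. Nppb was lower in the ISO female (99.8 CPM) than in both Ctr females (195.5 and 352 CPM) and higher in both ISO males (192 and 267 CPM) than in the Ctr male (182 CPM). The change differed between males and females by 1.79 on the log2 scale (edgeR interaction of sex and treatment, adjusted p = 0.677). Npr3 was higher in the ISO female (93.8 CPM) than in both Ctr females (60.5 and 63.0 CPM) and lower in both ISO males (46.3 and 58.9 CPM) than in the Ctr male (118 CPM), a difference of -1.77 (edgeR, adjusted p = 0.227). Neither passed the adjusted threshold. Nppa rose from ISO to ISO/PE in both sexes, but more in the female (382 to 1762 CPM). In the males it went from 727 and 1004 to 1429.8 and 1112 CPM. That change differed between males and females by -1.65 on the log2 scale, which did not pass the adjusted threshold either. With 1 heart of one sex in each group, sex and the single heart cannot be told apart.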

How the results depend on the processing

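The 18 values of the members (6 genes, 3 comparisons) were recomputed under 19 alternatives each, 342 in all, of which 315 kept both direction and call. Nppa and Nppb vs. Ctr under ISO/PE, and Nppb vs. ISO, were called under every one of them. The call of Nppa for ISO vs. Ctr was lost with sex as a covariate (0.83) and ranged from 0.60 to 1.24 with each heart left out. Its call for ISO/PE vs. ISO was lost with only the 2 compared groups in the fit (1.03) and ranged from 0.73 to 1.37. Scaled to cardiomyocyte markers, Npr1 was at 0.15, 0.40 and 0.25 for ISO vs. Ctr, ISO/PE vs. Ctr and ISO/PE vs. ISO, Npr2 at 0.23, 0.47 and 0.24, Corin at 0.36 and 0.39 for the latter comparisons, and Npr3 at 0.058 for ISO vs. Ctr and -0.22, not called, for ISO/PE vs. Ctr. With each heart left out, Npr3 ranged from -0.61 to 0.11 for ISO vs. Ctr and from -0.99 to -0.46 for ISO/PE vs. ISO, where it was called without Ctr male1 (-0.80), and Corin from -0.68 to -0.41 for ISO/PE vs. Ctr. The Npr3 share for ISO vs. Ctr ranged from -4.15 to 2.21 percentage points, above 0 without Ctr male1 or without ISO male1 (0.84). The number of other pathway genes called moved from 10, 25 and 9 to 24, 48 and 24 with the cardiomyocyte scaling, and to 5 without ISO female2 for ISO/PE vs. ISO. Over all genes, the calls of ISO/PE vs. ISO moved from 525 higher and 405 lower to 279 and 201 without ISO female2 and to 319 and 221 without ISO/PE female2, and the cardiomyocyte scaling gave 3214 and 124 in place of 1502 and 431 (ISO vs. Ctr), 10274 and 151 in place of 2309 and 1463 (ISO/PE vs. Ctr) and 5320 and 81 (ISO/PE vs. ISO). Counting error of the members was at most 4.74%, whereas Nppc, Spint1 and Wfdc18 rest on few counts.

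With the name of the heart (sex and number) as a replicate block, the call of Nppa was lost in both comparisons that involve ISO (ISO vs. Ctr at 0.72, adjusted p = 0.275, ISO/PE vs. ISO at 1.10, adjusted p = 0.0848), and no other call of a member changed. The r of the deviations of hearts of one name was 0.01, -0.05 and -0.12 between ISO and ISO/PE, 0.18 and 0.00 between Ctr and ISO, and 0.04 and 0.17 between Ctr and ISO/PE, not over 0.1 in every pair, so the names were not taken to pair the hearts. The cause of these changes was not tested.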
